A study of Mus musculus with 4 samples.

Results

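The 47 genes described here are genes of meiosis and of the germ line, measured in mouse embryonic stem cells with and without knockdown of Kdm2b. They are the 47 symbols of a list that was chosen with earlier results of these data known. Each was found in the value table through probe sets whose platform annotation gives exactly 1 symbol, and the probe set with the highest mean over the 4 arrays was kept, so that all 47 were measured among 19938 genes. They were grouped by role into 21 genes of the meiotic chromosome, 14 genes of the piRNA pathway and its Tudor-domain proteins, and 12 other germ cell genes. The cells were E14, an embryonic stem cell line of an inbred 129 strain, grown on gelatin with leukemia inhibitory factor (1000 units/ml) in 15% serum, and profiled on Affymetrix MoGene 1.0 ST arrays. Both groups received lentiviral vectors (10 MOI) and, after 48 h, puromycin at 2 µg/ml to select the transduced cells, 2 arrays being of control cells and 2 of Kdm2b knockdown cells. The sources used here do not give the vector sequences, the insert of the control vector or whether replicates were separate cultures. The p-values therefore measure the spread between these arrays alone, which may be technical.

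In meiosis, homologous chromosomes are held by an axis of Sycp2, Sycp3, the HORMA-domain proteins and meiotic cohesins, are broken by Spo11, are repaired by Dmc1 and its helpers, and are zipped together by the synaptonemal complex. PIWI proteins loaded with piRNAs silence transposons in germ cells, together with Tudor-domain proteins that gather in granules beside the mitochondria. In embryonic stem cells many of these genes are known to be kept low by DNA methylation, H3K9 methylation and a variant Polycomb repressive complex 1 (PRC1) that holds E2f6, Mga and Pcgf6. Kdm2b, a reader of unmethylated CpG, belongs to another PRC1 variant, and the study asked what that complex does at the CpG islands of lineage genes.

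Germline genes moved both ways when Kdm2b was knocked down. Of the 47 genes, 4 rose, namely Dazl, Tex19.1, Syce1 and Asz1, and 6 fell, namely Sycp3, Stra8, Piwil4, Meioc, Smc1b and Tex14 (adjusted p under 0.05, limma over 19938 genes). Over all genes tested the shares were 5.00% higher and 7.19% lower, against 8.51% and 12.8% of the 47, so 12.2% of all genes were called in either direction and 21.3% of the 47. As the list was chosen with earlier results of these data known, its shares, here and by role, are descriptions only. The sizes ran from a log2 fold change of -1.14 (Sycp3) to 0.955 (Dazl), with 24 positive and 23 negative values and a median of 0.015, where the median over all genes was 0.03. Both knockdown arrays lay above both control arrays for 13 of the 47 and below them for 16, with 18 overlapping. Over all genes 33.8% lay above and 25.0% below, together 58.8%. In a bulk sample, a change in the number of cells that express a gene and a change in RNA per cell cannot be told apart.

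Kdm2b itself was lower in both knockdown arrays, with log2 values of 10.74 and 10.64 in control and 9.20 and 9.19 in knockdown cells, so it fell by 1.495 (SE 0.066, adjusted p = 0.0039, limma). All 14 stem cell markers lay above the median probe set of the table (a mean log2 value of 8.52), with mean log2 values from 11.64 to 14.13. Of the 14, 2 fell, Lin28a by 0.90 (SE 0.09, adjusted p = 0.00714, limma) and Tcl1 by 0.365 (SE 0.064, adjusted p = 0.0221, limma), 0 rose, and the part of this in the germline values was not tested. Of 16 late spermatid genes 2 lay above the median probe set, and of 10 testis somatic cell markers 3 did. Of the 47 genes 26 lay above it, and of the 21 meiotic chromosome genes 9, where 11516 of 19938 genes did. Among the 10 called genes, Asz1 and Stra8 lay under it. Median log2 values over all probe sets were 8.49 to 8.55 on the 4 arrays. With any array left out limma called 0 of the 47 genes and 0 of all genes, with 12 to 19 of the 47 at an unadjusted p under 0.05, and the 10 called genes kept their sign in each of these fits.

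**Figure D1:**
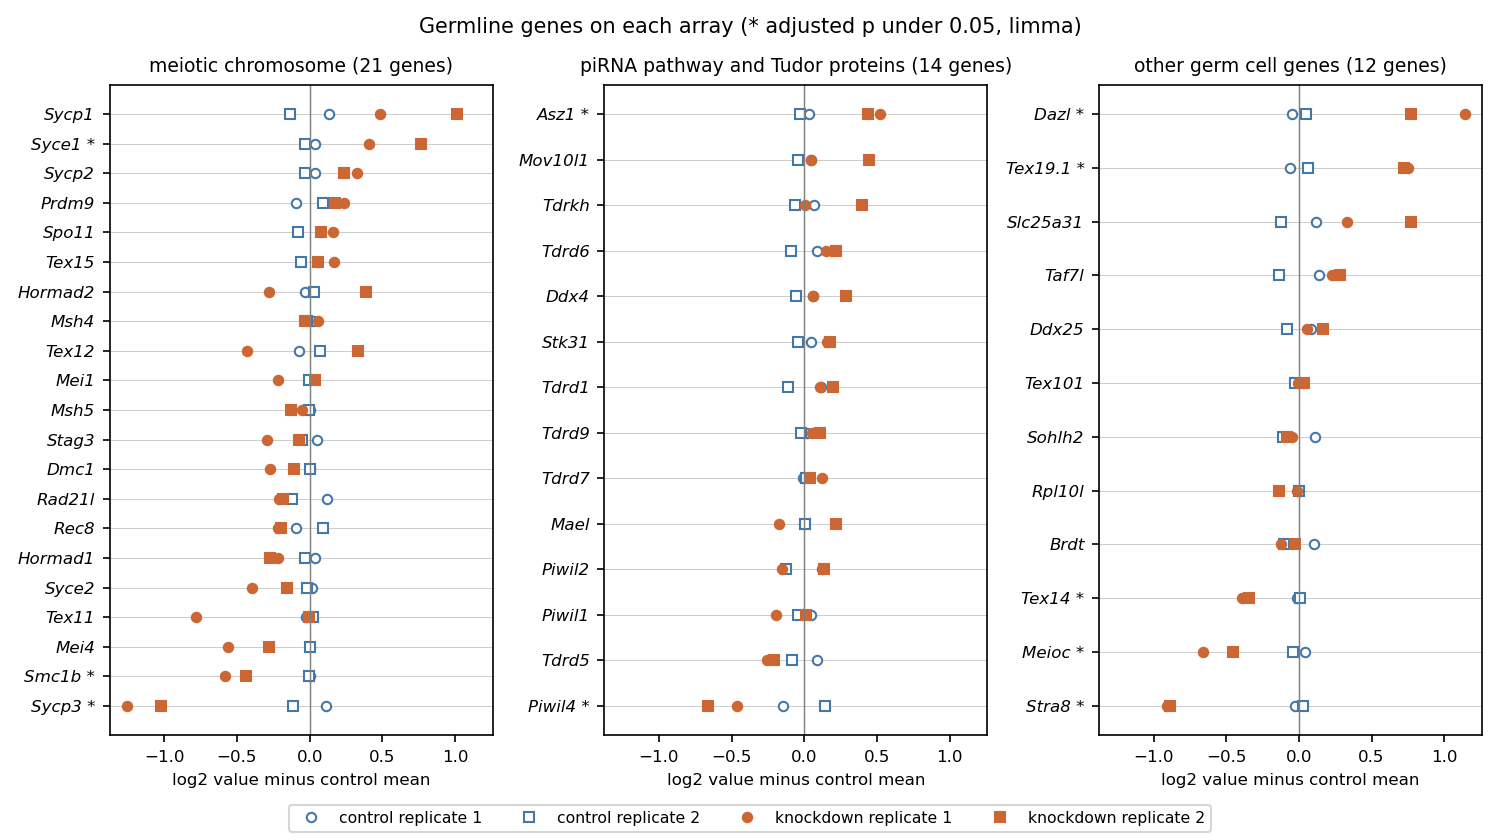
Log2 value of each of the 47 genes on each array minus the mean of the 2 control arrays, by role, with control arrays as open blue and knockdown arrays as filled orange symbols (circles replicate 1, squares replicate 2). Sycp3 and Stra8 lie farthest left and Dazl farthest right, and Tex11, Tex12 and Hormad2 show the widest gaps between the knockdown arrays.

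Among the 21 meiotic chromosome genes, 2 fell, 1 rose and 18 did neither, so 14.3% were called where all genes gave 12.2%. Sycp3, a rod-forming protein of the chromosome axis, was the gene that fell most (probe set 10365627). Control cells had log2 values of 10.98 and 10.75, with a mean of 10.865 ± 0.16 (SD, n = 2), and knockdown cells 9.61 and 9.84, with a mean of 9.725 ± 0.16 (SD, n = 2). Both knockdown arrays lay below both control arrays, and Sycp3 fell by 1.14 (SE 0.112, adjusted p = 0.00684, limma), or to a level 2.20-fold lower. The 250 bases before the RefSeq start of Sycp3 are shown because it fell most, from chr10:88459337-88459586 of GRCm38.p6 on the plus strand, with each CpG, the dinucleotide that Kdm2b reads when unmethylated, in capitals. They hold 12 CpG.
Sycp3: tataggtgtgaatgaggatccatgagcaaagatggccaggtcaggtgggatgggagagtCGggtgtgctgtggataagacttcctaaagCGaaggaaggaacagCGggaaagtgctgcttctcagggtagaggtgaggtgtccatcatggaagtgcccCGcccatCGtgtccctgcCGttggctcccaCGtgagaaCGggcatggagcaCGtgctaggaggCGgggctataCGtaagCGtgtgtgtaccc

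Smc1b, the meiotic counterpart of a cohesin core subunit, had log2 values of 10.23 and 10.22 in control cells and 9.64 and 9.79 in knockdown cells (probe set 10431182). Both knockdown values lay below both control values, and it fell by 0.51 (SE 0.074, adjusted p = 0.0145, limma). Its partners in meiotic cohesin had values of the same sign that did not pass the threshold. Stag3 stood at -0.18, Rec8 at -0.205 and Rad21l at -0.195, and for each the knockdown arrays lay below the control arrays, as for 25.0% of all genes. Stag3 was -0.07 without knockdown replicate 1, Rec8 -0.11 without control replicate 2 and Rad21l -0.075 without control replicate 1. Rad21l had a further probe set, at -0.175.

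Of the 5 genes of the synaptonemal complex and its axis described next, Syce1 alone passed the threshold. Syce1, a protein of the central element of the complex, had log2 values of 10.02 and 9.95 in control cells and 10.39 and 10.75 in knockdown cells (probe set 10568968). Both knockdown arrays were above both control arrays but apart from each other by 0.36, and Syce1 rose by 0.585 (SE 0.122, adjusted p = 0.035, limma). Sycp1, the transverse filament protein, had log2 values of 8.18 and 7.91 in control and 8.53 and 9.06 in knockdown cells. Its groups were also separated, and its log2 difference of 0.75 (SE 0.183, adjusted p = 0.052, limma) did not pass the threshold. It was 0.485 without knockdown replicate 2, and it passed once arrays were centred on their medians (0.71) and with an intensity trend, its adjusted p being 0.0434 to 0.364 over all settings. Sycp2, the partner of Sycp3 in the axis, stood at 0.28 (SE 0.068, adjusted p = 0.0514, limma) with the groups separated, and passed with an intensity trend alone (adjusted p 0.0482 in limma, of 0.0482 to 0.273 over all settings). Syce2, another central element protein, had log2 values of 12.54 and 12.51 in control and 12.13 and 12.37 in knockdown cells, which gave -0.275 (SE 0.092, adjusted p = 0.111, limma), and -0.155 without knockdown replicate 1. Tex12, which forms a complex with Syce2, overlapped between the groups, with 7.08 and 7.22 in control and 6.72 and 7.48 in knockdown cells.

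The HORMA-domain proteins mark chromosome axes that have not yet paired. Hormad1 stood at -0.245 (SE 0.065, adjusted p = 0.065, limma), and its further probe set at -0.475. With the mean of its probe sets it was past the threshold, and likewise with dim genes removed or arrays centred. Hormad2 overlapped, with 8.89 and 8.95 in control and 8.64 and 9.31 in knockdown cells.

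None of the 9 genes described next, which act in making and repairing meiotic breaks, passed the threshold. Mei4, a factor needed for the breaks, had log2 values of 10.39 and 10.39 in control and 9.83 and 10.11 in knockdown cells. Its difference of -0.42 (SE 0.101, adjusted p = 0.0501, limma) lay just outside the threshold. It passed with arrays centred, with dim genes removed, with the mean of probe sets, with an intensity trend and with a robust prior, and its adjusted p was 0.0337 to 0.334 over all settings. The value ran from -0.56 without knockdown replicate 2 to -0.28 without knockdown replicate 1. Spo11, the enzyme that cuts the DNA, stood at 0.12, and the hotspot-marking methyltransferase Prdm9 at 0.205. The recombinase Dmc1 stood at -0.19, Mei1 at -0.09, and the mismatch-repair homologs Msh4 and Msh5 at 0.015 and -0.09. Tex11, a crossover gene, had 8.24 and 8.29 in control and 7.48 and 8.26 in knockdown cells, so its value of -0.395 was -0.005 without knockdown replicate 1. Tex15, a factor of break repair, stood at 0.115. The median over the 21 genes was -0.09.

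Of the 14 piRNA genes, 1 rose, 1 fell and 12 did neither, so 14.3% were called where all genes gave 12.2%. Of their values 10 were positive, with a median of 0.115, and over all genes 11344 of 19938 were positive. Asz1, a protein of the mitochondrial membrane that piRNA production needs, had log2 values of 6.11 and 6.05 in control and 6.60 and 6.52 in knockdown cells (probe set 10543259). The groups were separated and Asz1 rose by 0.48 (SE 0.066, adjusted p = 0.0133, limma), at a mean log2 value of 6.32 that lay under the median probe set. Piwil4, a nuclear PIWI protein that guides DNA methylation of transposons, had 8.76 and 9.05 in control and 8.44 and 8.24 in knockdown cells (probe set 10590933). Both knockdown values lay below both control values, and Piwil4 fell by 0.565 (SE 0.118, adjusted p = 0.0355, limma).

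The other PIWI genes overlapped between the groups. Piwil2 had 10.22 and 9.97 in control and 9.94 and 10.23 in knockdown cells, and Piwil1 stood at -0.09. Mael, a granule protein, had 12.18 and 12.19 in control and 12.01 and 12.40 in knockdown cells, so the control values lay between the knockdown values. The helicase Mov10l1, which binds piRNA precursors, had 10.52 and 10.43 in control and 10.52 and 10.92 in knockdown cells, which gave 0.245 (SE 0.133, adjusted p = 0.278, limma) in which the raised value is that of knockdown replicate 2. Ddx4, the germ cell RNA helicase also called Vasa, stood at 0.175 and overlapped.

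Tudor-domain proteins bind methylated arginines of PIWI proteins. Tdrd5 had 8.94 and 8.77 in control and 8.60 and 8.65 in knockdown cells, which gave -0.23 (SE 0.079, adjusted p = 0.116, limma), and -0.145 without control replicate 1. The remaining ones among the 14 had positive values, with Tdrkh at 0.20, Tdrd6 at 0.185, Stk31 at 0.165, Tdrd1 at 0.15 and Tdrd7 and Tdrd9 at 0.08 each, and none of these passed the threshold. Tdrkh was 0.005 without knockdown replicate 2, and without control replicate 2 Tdrd1 was 0.035 and Tdrd6 0.095.

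Of the 12 other germ cell genes, 2 rose, 3 fell and 7 did neither, so 41.7% were called where all genes gave 12.2%. Dazl, an RNA-binding protein that licenses germ cells for gamete formation, had log2 values of 9.12 and 9.22 in control cells, a mean of 9.17 ± 0.071 (SD, n = 2), against 10.31 and 9.94 in knockdown cells, a mean of 10.125 ± 0.26 (SD, n = 2; probe set 10451721). The groups were clear of each other, and Dazl rose by 0.955 (SE 0.126, adjusted p = 0.0121, limma), or to a level 1.94-fold higher. Tex19.1, a gene of stem cells and germ cells that curbs transposons, had 9.43 and 9.55 in control and 10.24 and 10.21 in knockdown cells (probe set 10383511). It rose by 0.735 (SE 0.069, adjusted p = 0.00649, limma). Its neighbour in the family, Tex19.2, stood at 0.145.

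The 3 genes of this group that fell were Stra8, Meioc and Tex14. Stra8, which retinoic acid induces when germ cells enter meiosis, had 8.90 and 8.96 in control cells, a mean of 8.93 ± 0.042 (SD, n = 2), against 8.02 and 8.04 in knockdown cells, a mean of 8.03 ± 0.014 (SD, n = 2; probe set 10537231). The replicates lay close together and the groups far apart, and Stra8 fell by 0.90 (SE 0.062, adjusted p = 0.0049, limma), or to a level 1.87-fold lower. Meioc, an RNA-binding partner of Ythdc2 that keeps cells in meiotic prophase, had 11.09 and 11.01 in control and 10.39 and 10.60 in knockdown cells (probe set 10381608). It fell by 0.555 (SE 0.088, adjusted p = 0.0177, limma), while Ythdc2 stood at -0.035. Tex14, a protein of the bridges between germ cells, had 10.42 and 10.44 in control and 10.04 and 10.09 in knockdown cells (probe set 10380025), and it fell by 0.365 (SE 0.061, adjusted p = 0.0202, limma).

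**Figure D2:**
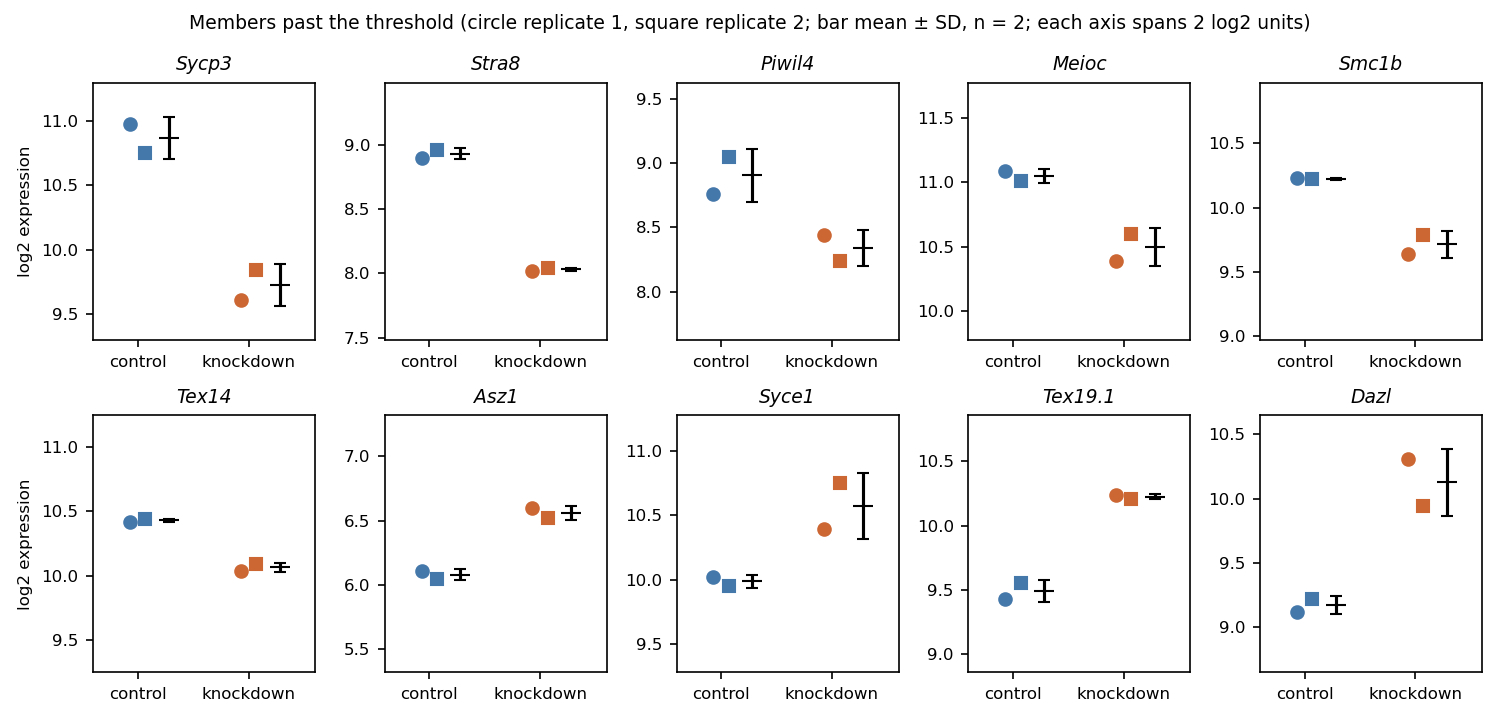
Log2 expression of the 10 genes past the threshold, one panel a gene, with control arrays in blue and knockdown arrays in orange (circle replicate 1, square replicate 2) and the mean ± SD (n = 2) as a bar; each vertical axis spans the same width in log2 units. In every panel the knockdown arrays lie on 1 side of the control arrays, with the widest knockdown spread in Dazl and Syce1.

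The others of this group did not pass the threshold. Slc25a31, the ADP/ATP carrier of germ cell mitochondria, had 9.15 and 8.91 in control and 9.36 and 9.80 in knockdown cells. Its difference was 0.55 (SE 0.157, adjusted p = 0.0772, limma), and it was 0.33 without knockdown replicate 2. Taf7l, a germ cell subunit of the general transcription machinery, had 7.79 and 7.52 in control and 7.88 and 7.94 in knockdown cells. This gave 0.255 (SE 0.1, adjusted p = 0.156, limma), which ran from 0.12 to 0.39 when control replicate 2 or 1 was left out. Rpl10l, a copy of the ribosomal protein gene Rpl10 used in meiosis, had 11.91 and 11.91 in control and 11.90 and 11.77 in knockdown cells, and is uncertain where its probes also read Rpl10. The bromodomain gene Brdt stood at -0.075, the germ cell regulator Sohlh2 at -0.065, the RNA helicase Ddx25 at 0.11 and Tex101 at 0.015. The median over the 12 genes was -0.025. It was 0.0425 without control replicate 1 and 0.015 with dim genes removed.

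The promoters of the genes that moved most in this group differ in CpG. They are shown, again as the 250 bases before the RefSeq start in GRCm38.p6 with each CpG in capitals, for Dazl (chr17:50293621-50293870, minus strand), Tex19.1 (chr11:121145893-121146142, plus strand) and Stra8 (chr6:34920698-34920947, plus strand). Dazl holds 20 CpG, Tex19.1 15 and Stra8 5, and the median over the 15562 genes tested that have an entry was 11. Meioc and Tex14, which fell as Stra8 did, hold 22 and 17. Over the 4 genes of all groups that rose the median was 15.0, and over the 6 that fell it was 14.5.
Dazl: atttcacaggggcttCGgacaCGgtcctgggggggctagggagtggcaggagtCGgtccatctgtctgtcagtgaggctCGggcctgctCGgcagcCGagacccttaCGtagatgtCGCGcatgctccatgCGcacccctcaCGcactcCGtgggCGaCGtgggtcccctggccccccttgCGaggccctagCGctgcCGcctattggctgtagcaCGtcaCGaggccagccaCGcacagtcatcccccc
Tex19.1: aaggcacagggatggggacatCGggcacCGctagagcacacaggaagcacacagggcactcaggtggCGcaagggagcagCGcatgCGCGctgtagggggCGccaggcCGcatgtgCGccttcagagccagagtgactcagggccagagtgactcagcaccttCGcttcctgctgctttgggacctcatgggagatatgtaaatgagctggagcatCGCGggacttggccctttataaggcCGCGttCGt
Stra8: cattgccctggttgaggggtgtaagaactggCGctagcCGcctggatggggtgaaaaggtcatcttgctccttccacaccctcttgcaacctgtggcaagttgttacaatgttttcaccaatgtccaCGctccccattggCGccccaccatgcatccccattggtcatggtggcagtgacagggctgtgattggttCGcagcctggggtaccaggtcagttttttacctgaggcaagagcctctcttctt

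Of the 47 genes, 42 had a promoter in the RefSeq table. The ratio of observed to expected CpG in these windows was above 0.6 for 25 of the 42, or 59.5%, against 49.0% of all genes. All 4 genes that rose and 4 of the 6 that fell were above it, Stra8 (0.267) and Piwil4 (0.575) being the others. The windows were also searched on both strands for the letters GCGGGAA, which read TTCCCGC on the other strand, a core that E2F proteins including E2f6 are known to bind, and for CACGTG, the E-box of Mga and Max. These motifs were chosen with the expression values known, and a match to either can share at most an edge base with a match to the other. The E2F-type letters were in 10 of the 42 windows, or 23.8%, against 5.32% of all genes and 8.87% of those with a CpG ratio above 0.6. The E-box was in 15, or 35.7%, against 7.04% of all genes and 9.77% of those with a CpG ratio above 0.6.

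The E2F-type letters were in 4 of the 6 genes that fell and in 0 of the 4 that rose. The match lies 147 bases before the start in Sycp3, 48 in Smc1b, 228 in Meioc and 112 in Tex14. It is shown in capitals with 10 bases on each side, in GRCm38.p6, for Sycp3 (chr10:88459430-88459456, plus strand), Smc1b (chr15:85131989-85132015, minus strand), Meioc (chr11:102665347-102665373, plus strand) and Tex14 (chr11:87404943-87404969, plus strand), because these are the genes that fell with a match.
Sycp3: ggaaggaacaGCGGGAAagtgctgctt
Smc1b: aaagaatttcTTCCCGCgctttttttt
Meioc: cttcctttgaGCGGGAAacatcttcag
Tex14: ccccttgcttTTCCCGCcctcgcgggg

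The other 6 genes with these letters were Tex12, Hormad1, Msh5, Ddx4, Tdrd5 and Rpl10l. Of all 10, 9 had a negative log2 fold change, with Ddx4 the exception, and the median was -0.2375. Nearest to zero among the 9 were Tex12 at -0.05, Rpl10l at -0.075 and Msh5 at -0.09. With an array left out Tex12 ran from -0.43 to 0.33. Of the 32 genes without the letters 12 had a negative value, and their median was 0.0675. Over all genes with a promoter, 47.9% of the 828 genes with the letters and 42.1% of the 14734 without had a negative value, and 9.78% and 7.30% were called lower. With the E-box, 6 of 15 genes had a negative value, and 1 of them, Sycp3, fell while 0 rose. Without it 15 of 27 had a negative value, and over all genes with a promoter 49.9% of the 1096 with it and 41.8% of the 14466 without it did. Of those 1096 and 14466 genes, 12.2% and 7.07% were called lower, and 5.02% and 4.98% higher. Whether any factor binds these windows was not measured here.

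**Figure D3:**
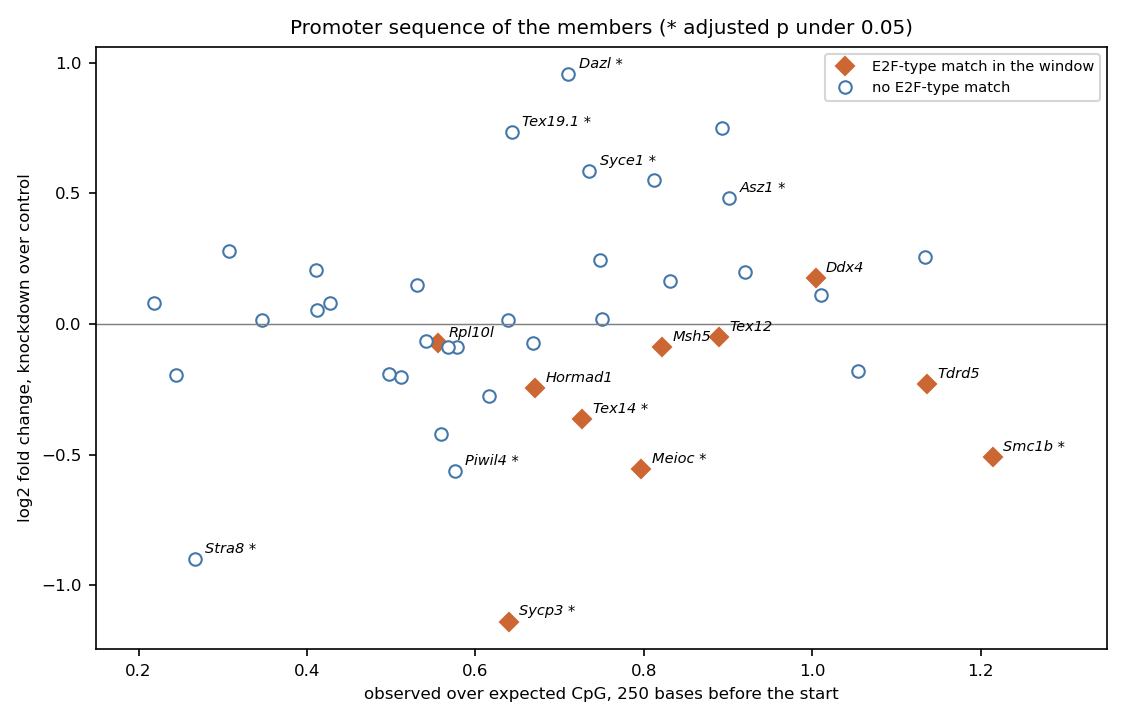
Log2 fold change of the 42 genes with a RefSeq promoter against the observed over expected CpG ratio of the 250 bases before the start, with filled diamonds for windows that hold the E2F-type letters and open circles for the rest; genes past the threshold carry an asterisk. Of 10 diamonds 9 lie below zero, Ddx4 being the exception, and the 4 genes that rose are all open circles to the right of 0.6.

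Among further genes of the same pathways, more were called lower than higher. These further lists were also chosen with earlier results of these data known, so their shares are descriptions only. Of 21 further meiotic chromosome genes measured, 9 fell, 1 rose and 11 did neither, so 42.9% were called lower where all genes gave 7.19%, and the median was -0.175. Iho1, a partner of Mei4 in break formation, had 8.94 and 8.68 in control and 7.67 and 7.89 in knockdown cells and fell by 1.03 (SE 0.116, adjusted p = 0.0087, limma). Meiob, a single-strand DNA-binding protein of recombination, fell by 0.92 (SE 0.153, adjusted p = 0.0198, limma). The crossover regulator Cntd1 fell by 0.89 (SE 0.119, adjusted p = 0.0123, limma), and Majin, which ties telomeres to the nuclear envelope, fell by 0.605 (SE 0.113, adjusted p = 0.0265, limma). The other 5 also fell, with log2 fold changes of -0.445 to -0.355. Trip13, which removes HORMA-domain proteins from chromosomes and also acts in mitosis, rose by 0.415 (SE 0.066, adjusted p = 0.0177, limma).

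Of 11 further piRNA genes 3 fell, or 27.3%, 1 rose, or 9.09%, and 7 did neither. All genes gave 7.19% lower and 5.00% higher. Tdrd12, a Tudor-domain helicase, had 11.34 and 11.46 in control and 10.38 and 10.33 in knockdown cells and fell by 1.045 (SE 0.07, adjusted p = 0.0049, limma). Gtsf1, a PIWI cofactor, fell by 0.48 and Morc1 by 0.34, and Henmt1, which methylates piRNA ends, rose by 0.36. Of 21 further germ cell genes 3 fell, or 14.3%, and 0 rose. Cyct, the testis form of cytochrome c, fell by 0.505, the testis lactate dehydrogenase gene Ldhc fell by 0.63 and the Dazl relative Boll fell by 0.335. Of 16 late spermatid genes 0 rose, and 1, Izumo1, fell by 0.495, so 6.25% were called lower where all genes gave 7.19%. The E2F-type letters were in 1 of the 11 promoters of further germline genes that fell, that of Hsf2bp, or 9.09%. They were in 5 of the 29 of those called neither, or 17.2%, so the larger share was not among the genes that fell. All genes gave 5.32%, and those with a CpG ratio above 0.6 gave 8.87%.

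**Figure D4:**
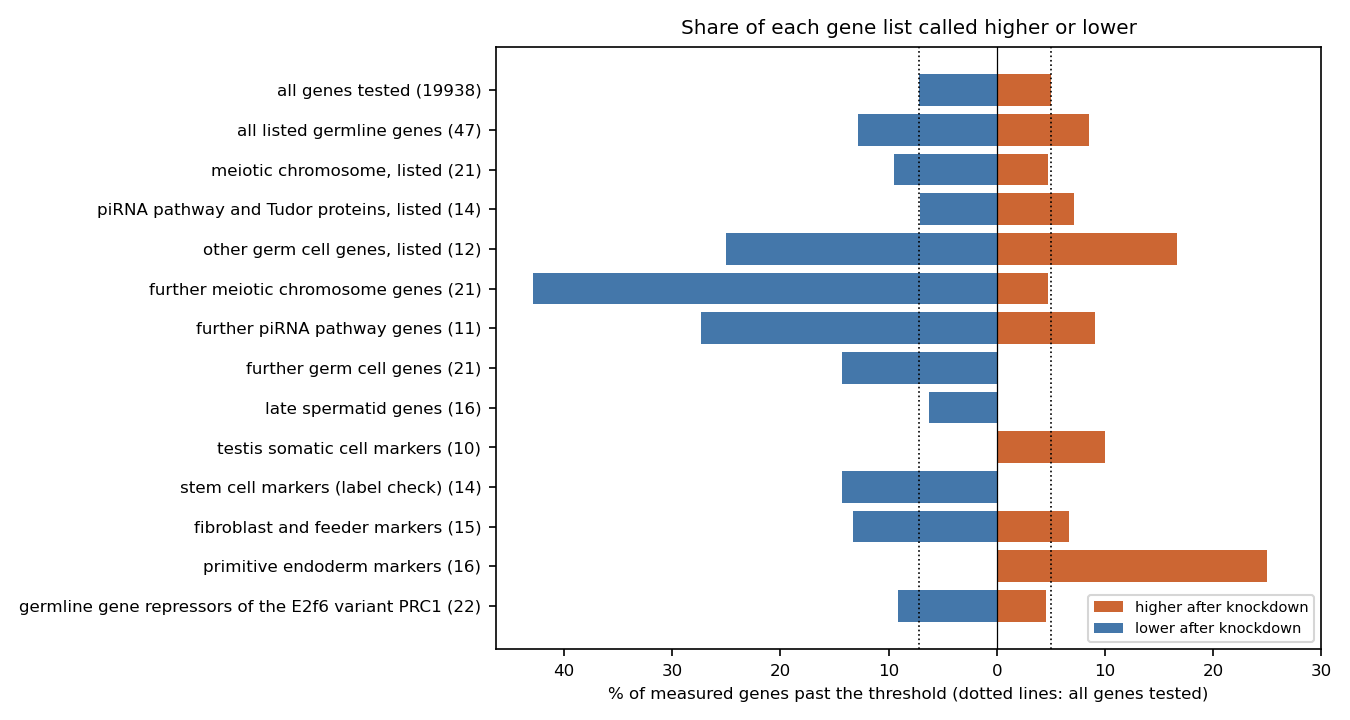
Share of each gene list called higher (orange, right) or lower (blue, left) after knockdown, with the number of measured genes in brackets and the shares over all 19938 genes as dotted lines. The further meiotic chromosome genes reach 42.9% on the lower side and the primitive endoderm markers 25.0% on the higher side, where all genes stand at 7.19% and 5.00%. The gene lists were chosen with earlier results of these data known.

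The 47 listed genes also differed between the 2 knockdown arrays. Knockdown replicate 2 was above replicate 1 for 33 of the 47, or 70.2%, against 46.6% of all genes, and the gap exceeded 0.3 for 10 of them, or 21.3%, against 4.14%. For Tex11, Tex12, Hormad2, Sycp1, Slc25a31, Mov10l1, Mael, Tdrkh and Syce1 replicate 2 was the higher, and for Dazl replicate 1. In the further germline lists the gap exceeded 0.3 for 0 of 21 meiotic, 0 of 11 piRNA and 1 of 21 germ cell genes. Between the control arrays 0 of the 47 differed by over 0.3, against 652 of all 19938 genes. Control replicate 2 was the lower for 32 of the 47, or 68.1%, against 52.2% of all genes. Markers of primitive endoderm, a lineage that can arise in these cultures, were higher in knockdown replicate 2 for 12 of 16 and lower for 3. Their mean log2 value was 9.06 and 8.86 in control and 9.38 and 9.65 in knockdown cells, and the gap between knockdown arrays exceeded 0.3 for 7 of 16, replicate 1 being the higher for Hnf4a among these. The control arrays differed by over 0.3 for 4 of 16. Of the 16 markers 4 rose, namely Gata6, Dab2, Col4a1 and Sox17, or 25.0%, where all genes gave 5.00%. Dab2 had 9.97 and 9.23 in control cells and rose by 1.12, and its further, dimmer probe set stood at 0.185. The part of this lineage in the germline values was not tested. Fibroblast and feeder markers differed by over 0.3 between the knockdown arrays for 0 of 15, with a mean log2 value of 8.20 and 8.18 in control and 8.21 and 8.17 in knockdown cells.

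**Figure D5:**
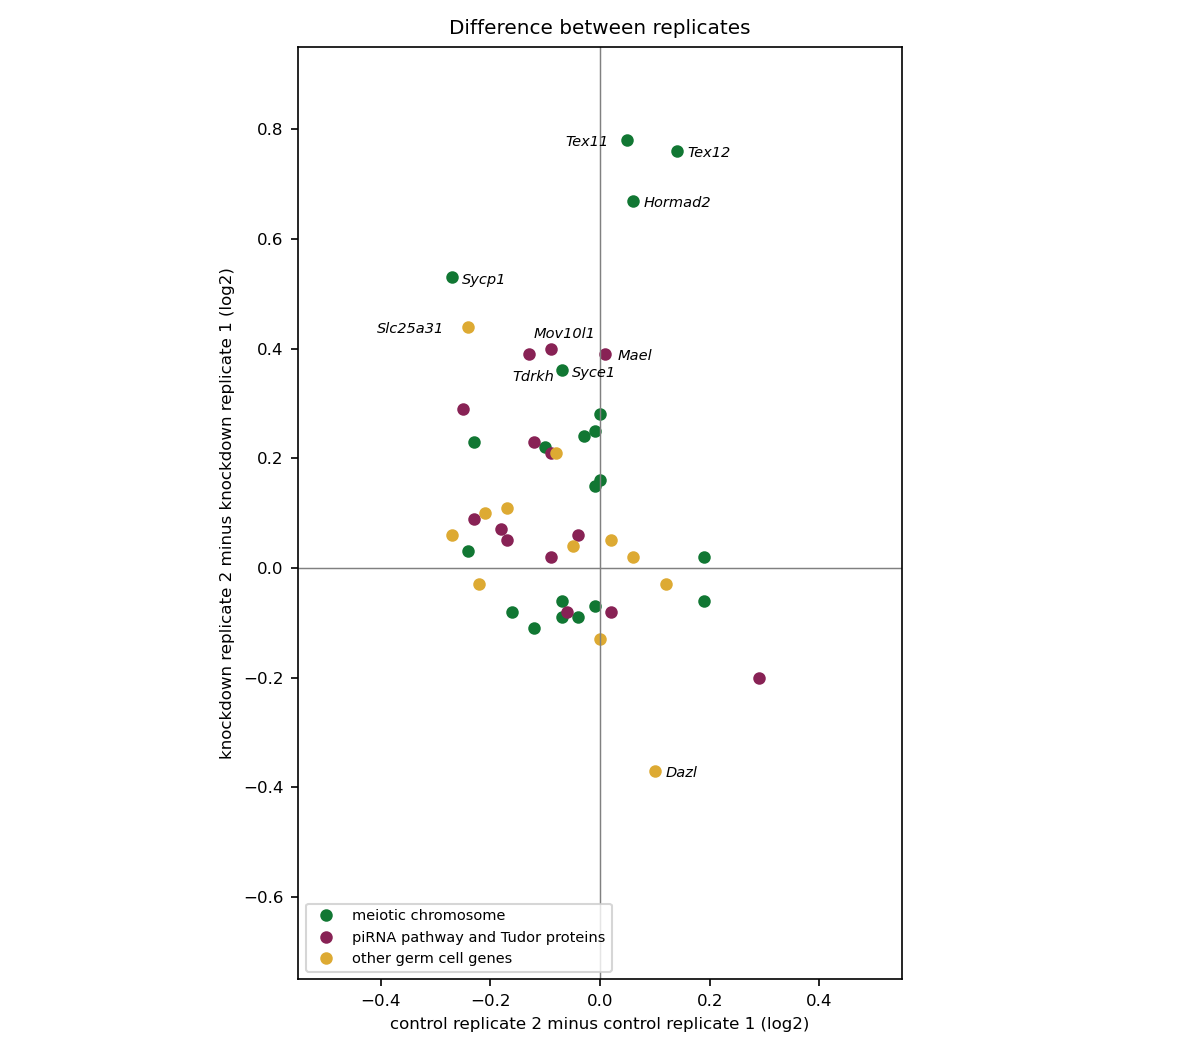
Difference between the replicates of each group for the 47 genes, control on the horizontal and knockdown on the vertical axis, in log2 units and coloured by role. Genes whose knockdown arrays differ by over 0.3 are named, and 9 of these 10 lie above zero, with Dazl below.

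The genes of the complex known to keep germline genes low were also measured. Of 22 measured genes of the E2f6 variant of PRC1 and its partners in silencing, 1 rose, 2 fell and 19 did neither, with a median of 0.025, so 13.6% were called where all genes gave 12.2%. Mga, its DNA-binding scaffold, had 12.58 and 12.52 in control and 12.24 and 12.13 in knockdown cells and fell by 0.365 (SE 0.07, adjusted p = 0.0281, limma). Yaf2 fell by 0.31, and Ring1 rose by 0.28 (adjusted p = 0.0499). E2f6 stood at 0.09, Pcgf6 at -0.11 and L3mbtl2 at -0.14. Of the DNA methyltransferases, Dnmt1 stood at 0.025, Dnmt3b at -0.045 and Dnmt3a at 0.31 (SE 0.075, adjusted p = 0.0512, limma), just outside the threshold.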

How the data were processed

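The deposited values are log2 expression per probe set on 4 arrays, which the submitters' processing notes say the authors made in Affymetrix Expression Console. The sources used here do not give its version, background step or scaling between arrays, and the log2 scale was read from the values (3.12 to 14.74). Of 35557 probe sets, 21789 had 1 gene symbol, and genes were named from these alone. Knockdown was compared with control by limma 3.58.1 in R 4.3.3 on the values as deposited (lmFit and eBayes with no term but group, two-sided tests, p-values adjusted by Benjamini-Hochberg over 19938 genes). A log2 fold change is knockdown minus control, SE is limma's moderated error and SD the spread within a group. The number of arrays limits the precision. The 47 genes, the further lists and the promoter motifs were chosen with earlier results of these data known. The text names all 47, with values on every array for the genes past the threshold and, by role, for the 2 largest changes among the rest and the brightest gene; of further lists it names up to 4 called genes with the largest changes, and every other name from these lists (Trip13 and Hsf2bp among them) was chosen after its values were seen. Of the further names listed, 3 were matched through a synonym. Promoters came from the RefSeq table of GRCm38.p6, the entry listed first for each gene, without the 50 bases after the start. Summaries used pandas 2.3.3 in Python 3.11.15. The fit was tested on simulated data. Replicate numbers were checked as pairs: deviations of the replicate 1 arrays from their group means correlated at 0.0954 over genes. With 2 arrays per group, replicate 2 gives the same value, so this cannot decide whether arrays were paired. No pairing was assumed.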

Additional observations from a re-analysis of the deposited data

How the results depend on the processing

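Counts of calls depended on the setting more than the values did. Over all genes limma called 997 higher and 1434 lower, and 4 and 6 of the 47. With the replicate number as a block it called 0 higher and 0 lower, over all genes and among the 47, and the same held with every probe set of the table tested, where 7742 of 35557 had an unadjusted p under 0.05, and with each array left out in turn (0 to 0 throughout, leaving 1 residual degree of freedom, the lone array being taken to vary like the other group). With the block 5411 of all genes and 13 of the 47 had an unadjusted p under 0.05. At an adjusted p under 0.1 limma called 1920 higher and 2236 lower over all genes, and 7 and 8 of the 47. The 10 calls were all kept under quantile normalization, centring, the mean of probe sets, an intensity trend and a robust prior, and 8 of the 10 with dim genes removed, where Asz1 and Stra8 were not tested. Centring each array on its median turned the split over all genes to 841 higher and 1866 lower and that of the 47 to 5 and 8.

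The median of the meiotic chromosome genes ran from -0.215 to -0.03 with an array left out and was -0.245 with dim genes removed, when fewer genes are measured. That of the other germ cell genes ran from -0.0425 to 0.0425 with an array left out, and was -0.065 with arrays centred and 0.015 with dim genes removed. That of the piRNA genes ran from 0.0475 to 0.185 with an array left out. Small values reversed. With arrays centred Mael stood at -0.02, Msh4 at -0.025 and Tex101 at -0.025, and after quantile normalization Msh4 at -0.0375, Tex101 at -0.0262 and Piwil2 at 0.0125. With an array left out Brdt ran from -0.18 to 0.03, Hormad2 from -0.28 to 0.39, Mael from -0.175 to 0.215, Mei1 from -0.215 to 0.035, Msh4 from -0.03 to 0.06, Piwil1 from -0.195 to 0.015, Piwil2 from -0.155 to 0.135, Sohlh2 from -0.175 to 0.045, Tex101 from -0.01 to 0.04 and Tex12 from -0.43 to 0.33. Beyond what is stated, the cause was not tested.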

Other observations

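The promoter letters that were searched in the germline genes also occur elsewhere in the table. Of 1096 genes tested whose 250 bases before the start hold CACGTG, 134 were called lower and 55 higher, or 12.2% and 5.02%. Of the 14466 genes without it, 7.07% were called lower and 4.98% higher. Promoters with a CpG ratio above 0.6 belonged to 7633 genes, of which 8.66% were lower and 6.09% higher, against 6.26% and 3.91% of the 7929 others. These shares are descriptions of the 2431 calls over all genes, and genes are not independent replicates.

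Wt1, a regulator of gonad and kidney development, was the 1 of 10 testis somatic cell markers that rose (by 0.545). That was 10.0%, where all genes gave 5.00%. The values of 9 of the 10 were positive, with a median of 0.155, and 3 of the 10 lay above the median probe set. Over all 19938 genes 11344 values were positive, with a median of 0.03, and 11516 genes lay above the median probe set.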
